A study of Mus musculus with 8 samples.

Results

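Pla2g4a and Ptgs2 are neighbouring genes on chromosome 1 of the mouse, and 20 regions at this locus differed in H3K27ac between Nrip1 KO and control myotubes. H3K27ac is a histone acetylation found at active promoters and enhancers. It was mapped by CUT&RUN, in which an antibody guides a nuclease to marked chromatin and the released DNA is sequenced. The 20 regions were taken from 11180 differential regions in all (3917 increased and 7263 decreased in KO) when they lay inside a member gene, had a member as the nearest protein-coding transcription start, or were centred within 500 kb of a member's start. All 20 came from the increased list and 0 from the decreased list. The locus was chosen from these same lists, for its many increased regions, so the counts that follow are a description and were not tested.

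The cells were primary myotubes, the fused muscle cells that satellite cells from gastrocnemius muscle form in culture, here after 4 days of differentiation. Expansion had been in a medium with EGF, insulin and dexamethasone. Each genotype, Nrip1 KO and control, had 2 H3K27ac libraries and 2 IgG libraries, 8 in all, and the lists compare the 4 H3K27ac libraries by genotype. Nrip1 encodes RIP140, a coregulator of nuclear receptors. The study's text assigns the KO myotubes to its striated muscle line, in which floxed Nrip1 was deleted by Cre recombinase under the muscle creatine kinase (MCK) promoter, active in heart and skeletal muscle, and Cre-negative littermates were the controls of that line. The labels give only the genotype. The methods state an age range for the mouse work as a whole, and the number of animals behind these cultures and their exact age are not given in the sources used here. The lists hold positions only. The size of each difference, the spread between the 2 replicates of a group, the depth and the IgG background are therefore unknown here. The study's methods say that nuclei were pooled and then divided among the antibodies. They do not say what was pooled, and whether the replicates were separate cultures is not stated.

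Prostaglandins are lipid signals made from arachidonic acid. Cytosolic phospholipase A2, the product of Pla2g4a, releases arachidonic acid from membrane phospholipids, and cyclooxygenase-2, the inducible product of Ptgs2, converts it to prostaglandin H2, from which terminal synthases make the individual prostaglandins. In muscle, prostaglandins are known to act on satellite cells and on the growth and fusion of myotubes. Pla2g4a and Ptgs2 thus encode consecutive enzymes of a single pathway, and their starts lie 138.7 kb apart on opposite strands, facing away from a shared intergenic interval.

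Positions are given for build mm10 and genes are those of GENCODE M21. Pla2g4a (ENSMUSG00000056220.14) lies on the minus strand from 149829618 to 149961290, and Ptgs2 (ENSMUSG00000032487.8) lies on the plus strand from 150100031 to 150108227. The regions were numbered 1 to 20 along the chromosome. Region 1 lay beyond the 3' end of Pla2g4a, regions 2 to 14 inside Pla2g4a, regions 15 and 16 between the genes, region 17 over the Ptgs2 promoter, regions 18 and 19 beyond Ptgs2, and region 20 at Hmcn1. Region 20 belonged to the set by distance alone, 466.1 kb from the start of Ptgs2.

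**Figure D1:**
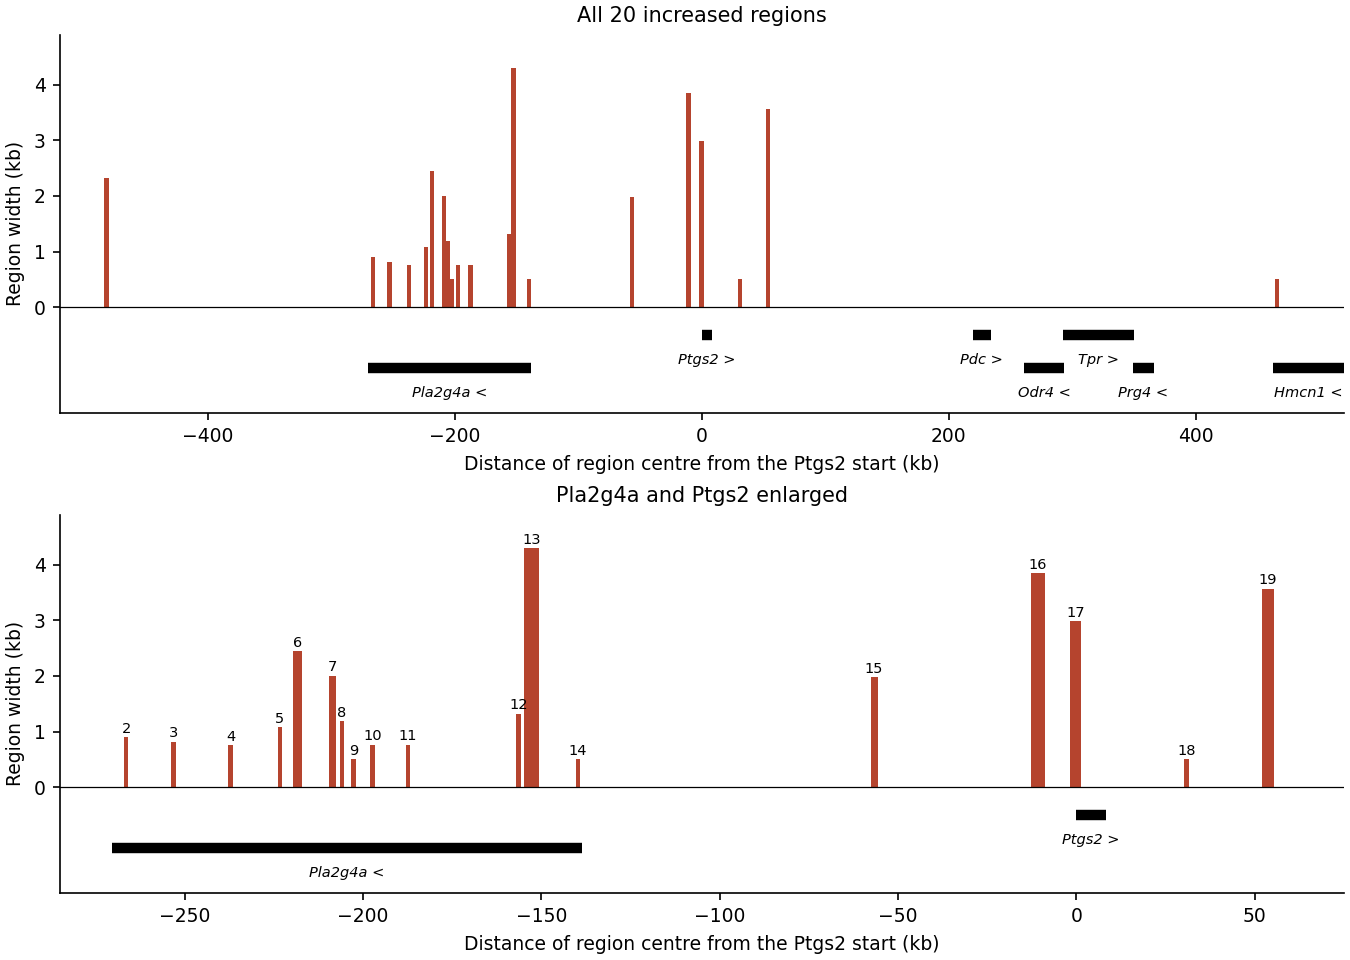
The 20 increased regions at Pla2g4a and Ptgs2 by distance of the centre from the Ptgs2 start (x axis, kb) and by width (y axis, kb), for the whole locus (upper panel) and enlarged (lower panel, with region numbers). Black bars are protein-coding genes with > for the plus and < for the minus strand; narrow bars are drawn at a minimum thickness, 13 regions lie inside Pla2g4a and 1 spans the Ptgs2 start.

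The Ptgs2 promoter lay wholly within an increased region, whereas the main Pla2g4a promoter was overlapped by none. Their sequences are shown for this contrast (RefSeq, build GRCm38.p6, which shares its coordinates with mm10, 250 bases before to 50 after the start, 5' to 3' on the gene's strand). Capitals mark matches to the consensus motifs searched.
Ptgs2 promoter, chr1:150099781-150100080, plus strand: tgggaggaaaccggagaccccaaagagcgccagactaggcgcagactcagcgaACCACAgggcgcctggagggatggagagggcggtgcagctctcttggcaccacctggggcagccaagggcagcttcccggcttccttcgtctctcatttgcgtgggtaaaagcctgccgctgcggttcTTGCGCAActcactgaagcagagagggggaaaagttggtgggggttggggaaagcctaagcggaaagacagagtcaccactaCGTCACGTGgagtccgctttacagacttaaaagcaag
Pla2g4a promoter, chr1:149961241-149961540, minus strand: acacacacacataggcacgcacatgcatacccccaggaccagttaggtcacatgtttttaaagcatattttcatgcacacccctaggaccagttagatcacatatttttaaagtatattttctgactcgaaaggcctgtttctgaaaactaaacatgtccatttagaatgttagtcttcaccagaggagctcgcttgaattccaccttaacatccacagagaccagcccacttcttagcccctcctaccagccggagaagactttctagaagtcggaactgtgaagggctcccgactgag

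In the Ptgs2 promoter, a match to the C/EBP consensus (TTGCNNAA) was found at 150099962 to 150099969, with the letters TTGCGCAA, 69 bases before the start. A RUNX match (TGTGGT, here read on the opposite strand as ACCACA) lay 197 bases before the start. These distances are from the RefSeq start, and where transcription begins in these cells is not given by the lists. At 13 bases after that start, the short form of the cyclic AMP response element (CGTCA) overlapped an E-box of the USF type (CACGTG). The last 2 motifs were added to the search after this promoter had been read. Matches on either strand occurred in 10.8% of 32851 RefSeq promoters of the same length for C/EBP, 16.8% for RUNX, 20.8% for CGTCA and 7.15% for the USF-type E-box. The Pla2g4a promoter at 149961290 had no match to the 13 motifs, which says only that these letters are not in this window. GC content was 59.3% in the Ptgs2 promoter and 45.3% in the Pla2g4a promoter.

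Region 17, which covered the Ptgs2 promoter, ran from 150098280 to 150101266 (2987 bp). It reached 1751 bp upstream of the annotated Ptgs2 start and 1235 bp into the gene, over exons 1, 2 and 3. Among its matches outside the promoter window printed above were NF-kB matches at 150098572 to 150098581 and at 150099696 to 150099705. Over whole regions, NF-kB was found in 13.6% of all increased regions. Ptgs2os, a non-coding gene on the opposite strand, has 2 annotated starts, 68 and 214 bp from the Ptgs2 start, and region 17 spanned both. Its centre was 258 bp from the Ptgs2 start, and 190 and 44 bp from those of Ptgs2os. CUT&RUN signal is not assigned to a strand, and the genes cannot be told apart by position here.

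Around Ptgs2, 4 more regions had it as the nearest protein-coding start. Region 16, 3850 bp wide and joined from 2 called peaks, was centred 10.83 kb upstream in an intron of Ptgs2os (150087274 to 150091123). Region 15, 1977 bp wide, lay 56.71 kb upstream in intergenic sequence (150042330 to 150044306). On the other side, beyond the 3' end, region 18 (501 bp) and region 19 (3572 bp, 150152025 to 150155596) were centred 30.87 and 53.78 kb from the start. Ptgs2 was thus nearest to 5 increased and 0 decreased regions covering 12887 bp. Of 21938 protein-coding genes, 0.52% had 5 or more nearest increased regions. When non-coding genes and pseudogenes also competed for the nearest start, Ptgs2 was nearest to 0 regions, since Ptgs2os, Gm19136 and Gm9687 had closer starts.

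Pla2g4a was nearest to 14 increased and 0 decreased regions, which covered 19667 bp. By the same count, 0.0228% of protein-coding genes (5 genes) had 14 or more, and the others, Slco3a1, Nr2f2, Rgma and Vstm2b, all lay on chromosome 7. Inside Pla2g4a there were 13 increased regions, a number reached by 0.0137% of protein-coding genes (3 genes). These regions covered 17343 bp, or 13.2%, of the 131673 bp of the gene. Among 2492 protein-coding genes of at least 100 kb, 3 were covered to at least this extent, namely Sytl2 (20.5%), Iqck (15.7%) and Pla2g4a, and the median cover was 0%.

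Within Pla2g4a the regions were spread over 8 of the 17 introns of the transcript with the longest coding sequence. Introns 1 and 5 held 3 each, intron 3 held 2, and introns 7, 8, 12, 15 and 17 held 1 each. Region 13 in intron 1 was the widest of the locus, with 4300 bp at 149945094 to 149949393, centred 14.05 kb downstream of the start, and region 12 (1322 bp) ended 923 bp from it. Only region 10 (767 bp, 149902198 to 149902964) overlapped an exon, exon 4, and its centre was 382 bp from the start of a processed transcript of Pla2g4a at 149902199. Region 14 (501 bp, 149959941 to 149960441) was closest to the main start at 149961290, with its centre 1099 bp downstream. The remaining regions in the gene, 2 to 9 and 11, were between 501 and 2445 bp wide and lay 48.75 to 127.8 kb from the start.

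Region 1 (2324 bp, 149616530 to 149618853, joined from 2 called peaks) stood apart from the others, 210.8 kb beyond the 3' end of Pla2g4a, and the nearest annotated start was that of the small nuclear RNA gene Gm23535 at 89791 bp. Regions 2 to 19 lay in a stretch of 326 kb that begins at the 3' end of Pla2g4a. In windows of that length outside chromosomes 4, 7, 10 and 16, the most increased regions found away from the locus was 9, compared with 18 here. Those 4 chromosomes were set apart for the direction of their regions. Chromosome 7 had 973 increased and 23 decreased, and chromosome 10 had 453 and 203. Chromosome 4 had 66 and 811, and chromosome 16 had 66 and 780. Over all regions, 35% were increased. Chromosome 1, with 243 increased and 529 decreased, was not set apart. Windows on chromosome 7 held up to 20, and windows on chromosome 10 up to 10. Gaps between neighbouring regions of the locus ranged from 923 bp to 410.3 kb, and 12 of 19 gaps were under 20 kb.

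The locus was also bounded by long stretches without regions or with regions of the other direction. The next region at lower coordinates lay 4000 kb away and was decreased (145615847 to 145616347). At higher coordinates, the next was a decreased region inside Hmcn1 (150874766 to 150875266), 308.4 kb beyond region 20. The outermost members were 343.6 and 466.1 kb from the nearer member's start, and the first region outside was 775 kb from it. The 20 regions formed an unbroken run of increased regions over 949.9 kb on a chromosome where 243 of 772 regions, or 31.5%, were increased. Of 1104 such runs outside chromosomes 4, 7, 10 and 16, this was the only 1 with 20 or more regions. Over all chromosomes, 17 of 1308 runs were at least as long, and the median run over the genome was 1 region long.

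Counted by windows, 19 increased and 0 decreased regions were centred within 500 kb of the 5' end of Pla2g4a, and 20 and 0 within 500 kb of Ptgs2. Of all protein-coding genes, 0.447% (98 genes) had 19 or more increased regions in this window, and 0.378% (83 genes) had 19 or more with no decreased region. Of the 98 genes, 95 were on chromosome 7. The other 3 were Pla2g4a, Ptgs2 and Pdc, a neighbour that shares their window. The medians over all protein-coding genes were 1 increased and 3 decreased regions.

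**Figure D2:**
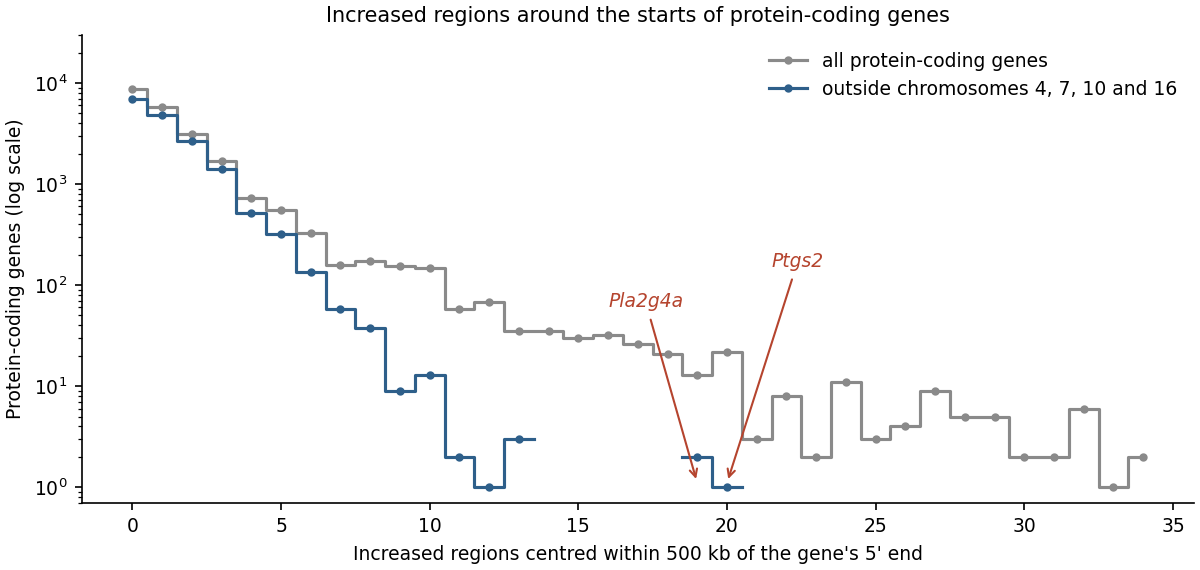
Number of protein-coding genes (y axis, log scale) by the number of increased regions centred within 500 kb of the 5' end (x axis), for all chromosomes (grey) and without chromosomes 4, 7, 10 and 16 (blue). Pla2g4a, at 19 regions, and Ptgs2, at 20, lie beyond the highest other value of 13 in the blue curve, together with the neighbouring Pdc at 19.

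The genes most like the members by this count, outside chromosomes 4, 7, 10 and 16 and at least 1 Mb from each other, were Ccdc68 on chromosome 18 with 13 increased and 3 decreased regions, C1qtnf7 on chromosome 5 with 12 and 0, Adamts20 on chromosome 15 with 10 and 0, Adamts6 on chromosome 13 with 10 and 1, and Cpvl on chromosome 6 with 9 and 1. Adamts20 and Adamts6, which encode secreted metalloproteases, resembled Pla2g4a in that 6 increased regions lay inside each gene. Cpvl was nearest to 0 regions, so its window was filled by regions nearest to other genes.

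The protein-coding neighbours within 1 Mb were Pdc, Odr4, Tpr, Prg4 and Hmcn1. Pdc (phosducin, a regulator of G protein signalling in photoreceptors), Odr4, Tpr (a nucleoporin) and Prg4 (lubricin) were nearest to 0 regions of either direction and contained none. Their starts lay 219.4, 293, 292.8 and 366.1 kb from the Ptgs2 start, in the gap of 410.3 kb between regions 19 and 20. Hmcn1, which encodes the extracellular matrix protein hemicentin-1, held 1 increased region (region 20, 501 bp, 543 bp from an annotated Hmcn1 start) and 4 decreased regions. That start is not the 5' end of Hmcn1, which lies on the minus strand at 150993435. Region 20 (150565897 to 150566397) was near the other end of the gene, at 150562524. Hmcn1 thus held regions of both directions. Over chromosome 1 as a whole, 243 of 772 regions (31.5%) were increased and 529 were decreased. The increased regions at Pla2g4a and Ptgs2 follow from the choice of the locus.

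Width was a property that the rule had not used. The median of the 20 regions was 1135 bp (quartiles 760 and 2354 bp), compared with 777 bp for all increased regions (quartiles 501 and 1202 bp). At least 1 kb was reached by 11 of the 20 regions and by 33.4% of all increased regions. The 4 widest, regions 13, 16, 19 and 17, made up 44.5% of the 33055 bp covered, and a width of at least 2987 bp was found in 2.81% of all increased regions. Of these 4, 3 had Ptgs2 as the nearest start. At the other extreme, regions 9, 14, 18 and 20 had the shortest width in the lists, 501 bp. The median width was 2987 bp for the 5 regions nearest Ptgs2 and 901 bp for the 13 inside Pla2g4a. Neighbouring regions share a locus and are not replicates, so these differences were not tested.

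**Figure D3:**
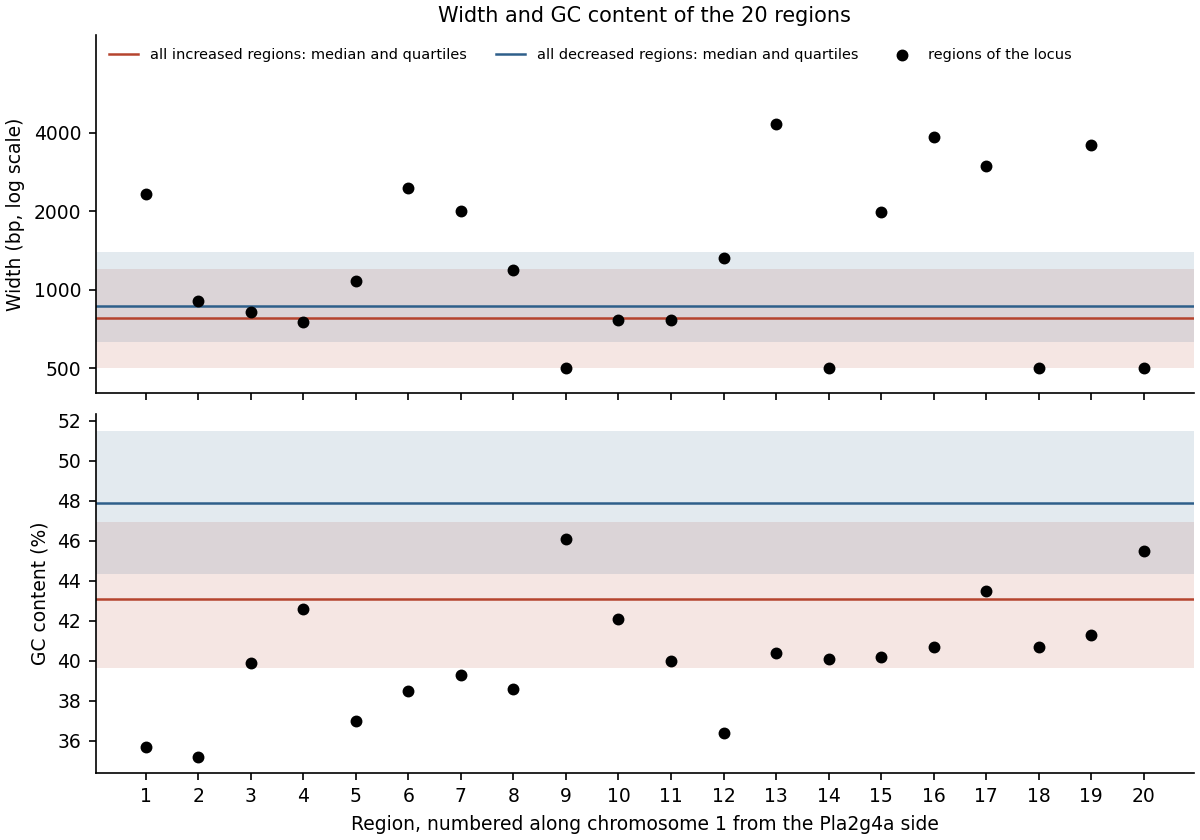
Width (upper panel, bp, log scale) and GC content (lower panel, %) of the 20 regions, numbered along the chromosome (x axis). Lines and shaded bands are the medians and quartiles of all increased (red) and all decreased (blue) regions; 8 points lie at 1977 bp or above and 4 at 501 bp, and all 20 GC values lie under the blue median of 47.9%.

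GC content was low along the locus. The median was 40.2% (range 35.2 to 46.1%), compared with 43.1% over all increased and 47.9% over all decreased regions (without 1 decreased region off the assembled chromosomes). It was under the median of all increased regions in 17 of 20 regions, the exceptions being region 9 in Pla2g4a (46.1%), region 17 at the Ptgs2 promoter (43.5%) and region 20 in Hmcn1 (45.5%). Region 17 was uneven, with 56.8% in its central 500 bp, the highest of the locus. Repeats, read as soft-masked bases, took up 6.19 to 42.5% of each region (median 17.2%), compared with a median of 14.7% over all increased regions.

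The widest pair of regions away from promoters, regions 13 and 16, is shown at the centres, since these differ most in width from the bulk of the list (201 bases each, build GRCm38.p6, capitals marking motif matches).
Region 13, chr1:149947143-149947343, plus strand: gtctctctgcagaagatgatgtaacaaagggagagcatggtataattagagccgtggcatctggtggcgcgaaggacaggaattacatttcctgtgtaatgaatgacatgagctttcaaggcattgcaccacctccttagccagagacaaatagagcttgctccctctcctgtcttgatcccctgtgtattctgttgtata
Region 16, chr1:150089098-150089298, plus strand: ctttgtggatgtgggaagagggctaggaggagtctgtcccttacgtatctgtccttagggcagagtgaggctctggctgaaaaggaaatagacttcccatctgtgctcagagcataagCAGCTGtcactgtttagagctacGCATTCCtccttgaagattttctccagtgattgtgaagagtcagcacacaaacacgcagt

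The centre of region 13 had no match to the motifs searched. The centre of region 16 held an E-box of the MyoD type (CAGCTG, the site bound by myogenic factors) at 150089216 to 150089221. It also held a TEAD match (GCATTCC) at 150089239 to 150089245. Region 16 was joined from 2 called peaks, so its centre is the midpoint of the joined interval and need not be the centre of a peak. Over its whole width, region 13 carried 7 TATA, 6 RUNX and 4 C/EBP matches, and 1 match each for MEF2 and the MyoD-type E-box.

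Each region was searched for motifs over its central 500 bp, as exact letters on both strands, and set beside the share over all regions. AP-1 (TGACTCA) was found in 5 of the 20 regions (25%), compared with 16.6% of all increased and 12.8% of all decreased regions. TEAD (ACATTCC or GCATTCC) was found in 5 (25%), compared with 17% and 14.2%. C/EBP was found in 6 (30%), compared with 20.7% and 17.5%, and RUNX in 8 (40%), compared with 34.2% and 36.6%. The MyoD-type E-box was found in 2 of the 20 regions (10%), compared with 28.8% of all increased and 37.9% of all decreased regions. The palindromic cyclic AMP response element (TGACGTCA), the estrogen-related receptor motif (TCAAGGTCA) and the glucocorticoid receptor motif were found in 0 regions, and each occurred in at most 1.38% of the full lists. MEF2 was found in 1 region (5%), compared with 2.83% and 1.31%. NF-kB was found in 1 (5%), region 17 over the Ptgs2 promoter, compared with 6.77% and 9.61%. The TATA box with the letters TATAAA was found in 7 (35%), compared with 35.1% and 22.4%. The short cyclic AMP element was found in 5 (25%), compared with 16.2% and 15%, and the USF-type E-box in 1 (5%), compared with 5.36% and 6.11%. With 20 regions a single match moves a share by 5 percentage points, and no share was tested. Over whole regions, C/EBP was found in 15 of 20 regions (75%) and in 35.2% of all increased regions. In the same search, the MyoD-type E-box was found in 7 (35%), compared with 44.1% of all increased and 57.4% of all decreased regions. However, the regions of the locus were wider and so offered more sequence. Their median GC content was also lower than that of both lists, and base content was not matched.

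**Figure D4:**
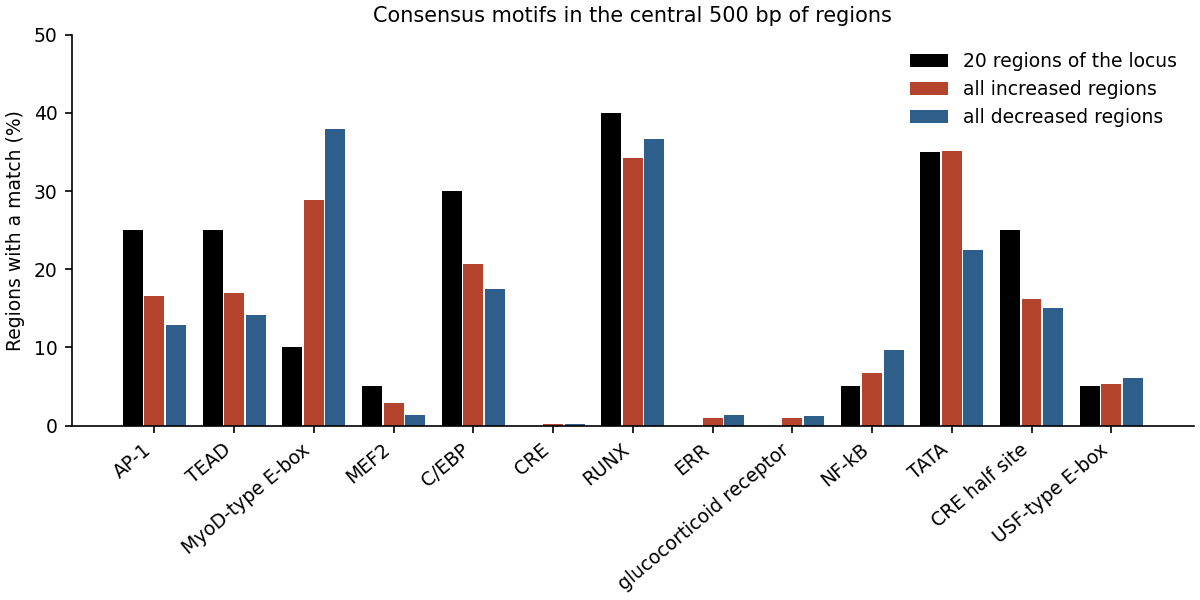
Share of regions (y axis, %) with a consensus match in the central 500 bp, for each motif (x axis), in the 20 regions of the locus (black), all increased (red) and all decreased regions (blue). The MyoD-type E-box is at 10% in the locus and at 28.8% and 37.9% in the lists, and 1 region of the locus corresponds to 5%.

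AP-1, the dimer of Fos and Jun proteins that responds to growth and stress signals, had 7 matches in 7 of the 20 regions (35%) when whole regions were searched. The same search found it in 25.6% of all increased and 24.7% of all decreased regions. The 7 matches are shown with 31 bases each on the plus strand, the motif in capitals. They were spread along the locus, in introns of Pla2g4a, on both sides of Ptgs2 and at Hmcn1, with none inside Ptgs2.
Region 3, chr1:149846785-149846815: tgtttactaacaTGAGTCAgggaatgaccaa
Region 5, chr1:149876758-149876788: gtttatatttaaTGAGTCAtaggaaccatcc
Region 7, chr1:149891988-149892018: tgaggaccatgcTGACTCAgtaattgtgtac
Region 11, chr1:149912706-149912736: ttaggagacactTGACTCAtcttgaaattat
Region 16, chr1:150087864-150087894: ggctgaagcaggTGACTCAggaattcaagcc
Region 18, chr1:150131093-150131123: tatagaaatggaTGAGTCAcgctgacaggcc
Region 20, chr1:150566201-150566231: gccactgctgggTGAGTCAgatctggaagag

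Of these, 4 lay in introns of Pla2g4a (regions 3, 5, 7 and 11), 1 in region 16 between the genes, 1 in region 18 beyond Ptgs2 and 1 at Hmcn1. The match in region 3 was 10 bases from the centre of the region and that in region 16 was 1319 bases from it. Region 17 over the Ptgs2 promoter had none.

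The other genes of the eicosanoid pathway were then located, from a list of 49 genes that also held both members. An increased region was nearest to 4 genes of the list (8.16%), compared with 10.6% of all protein-coding genes, and a decreased region to 9 (18.4%), compared with 17.8%. Apart from the members, the genes with a nearest increased region were Ptger4 and Hpgd, and both also had decreased ones. Counted inside the gene, 3 genes of the list had increased regions, namely the members and Slco2a1, the prostaglandin transporter gene, which held 3 increased and 0 decreased regions that were nearest to starts of other genes. Of 14 phospholipases A2, only Pla2g4a had a nearest increased region, while Pla2g4e, Pla2g4f and Pla2g2e each had 1 decreased region, at 9178, 7304 and 1898 bp from the start. The constitutive cyclooxygenase gene Ptgs1 was nearest to 0 regions.

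Of 8 terminal synthases, Ptges, which encodes the microsomal prostaglandin E synthase, was nearest to 1 decreased region of 2399 bp inside the gene, 2013 bp from the start (chromosome 2, 30926651 to 30929049). The 7 others, among them Ptgds, Ptgis and Tbxas1, were nearest to none. Among 10 receptor genes, Ptger1 for prostaglandin E2 had 1 decreased region at 1492 bp, Ptgfrn (a negative regulator of the prostaglandin F2 alpha receptor) had 2, the closer at 10340 bp, and Ptger4 was nearest to 1 increased and 2 decreased regions, none closer than 285589 bp. A further increased region lay within 100 kb of a Ptger4 start but was nearest to another gene. Hpgd, which encodes the enzyme that inactivates prostaglandins, had 3 increased regions and 1 decreased region, the closest being the decreased one at 21122 bp. Ptgr2, a prostaglandin reductase gene, had 1 decreased region at 29906 bp. The 10 genes of the lipoxygenase branch, such as Alox5 and Ltc4s, were nearest to none. Of the 23 increased regions nearest to a gene of the list, 19 were nearest to Pla2g4a or Ptgs2, as the choice of these genes would give. The share of 8.16% over the whole list includes these 2 members. Without them, 2 of 47 genes had a nearest increased region and 9 had a decreased one. Over all protein-coding genes, 10.6% had an increased and 17.8% a decreased one, and the difference was not tested.

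**Figure D5:**
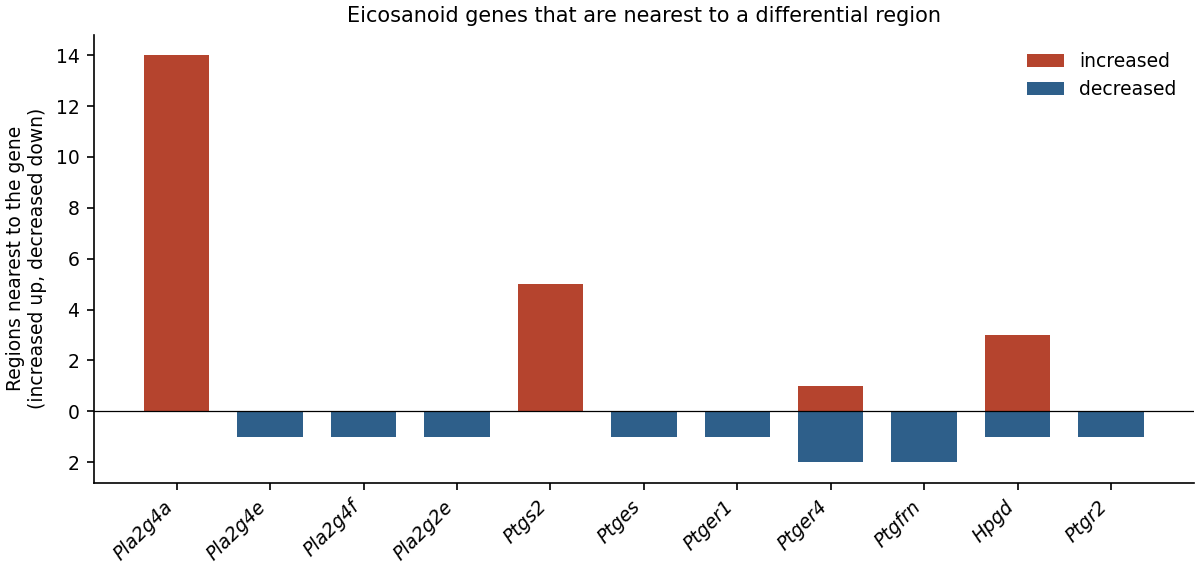
Differential regions nearest to each gene of the eicosanoid list that had any (x axis), increased regions above and decreased regions below 0 (y axis, number of regions). Pla2g4a (14) and Ptgs2 (5) have increased regions only, and the largest number at any other gene is 3 increased regions, at Hpgd.

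The lists were also read at markers of the cell types that such cultures can hold, since Ptgs2 and Pla2g4a are not restricted to muscle cells. A nearest increased region was found for 2 of 10 myotube, 1 of 5 myoblast, 4 of 8 fibroblast (Col1a2, Col3a1, Dcn and Tcf21), 0 of 5 macrophage and 1 of 4 endothelial genes (Kdr), beside 10.6% of all protein-coding genes. The myotube genes were Myh2 and Myh3 and the myoblast gene was Myf5. A nearest decreased region was found for 1 myotube (Myh2, thus in both directions), 1 myoblast (Pax7), 1 fibroblast (Col1a1), 0 macrophage and 2 endothelial genes (Pecam1 and Cdh5), beside 17.8% of all protein-coding genes. Both shares are over all chromosomes, including the 4 set apart above (4, 7, 10 and 16). The chromosome of each marker was not taken into account. Because the lists hold only regions that differ, the level of any marker, and with it the makeup of the cultures, cannot be read from them, and the part of other cell types in the result was not tested. Fewer cells of a type and less mark per cell cannot be told apart in bulk samples. The deleted gene Nrip1 held 0 increased and 2 decreased regions, on chromosome 16, where 66 regions were increased and 780 decreased.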

How the data were processed

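H3K27ac and IgG CUT&RUN libraries were made from Nrip1 KO and control myotubes. Per the study's methods and the submitters' processing notes, paired reads were aligned to mm10 with BWA-MEM2 (2.2.1), broad peaks were called with HOMER (4.11), and regions that differed by 2-fold or more in peak intensity were kept. How replicates and IgG libraries entered the calls is not stated, and the labels and the methods name different suppliers for the H3K27ac antibody. The authors deposited 2 lists of intervals, 1 per direction. The score deposited with each interval is constant and was not used, and positions, counted from 0 in the files, are printed counted from 1. A fold threshold without values per library gives no error.

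Regions were assigned by their centres to the nearest transcript start of GENCODE M21 protein-coding genes (21938 genes). Promoter-proximal meant within 1 kb of a start. Sequence came from GRCm38.p6 (pysam 0.24.0, samtools 1.23.1), and 11 motifs plus 2 added after seeing the data were matched exactly. Assignment, window counts and motif search were checked on simulated positions. Members, lists and motifs were chosen with earlier results of these data known. The text names the members, protein-coding neighbours within 1 Mb, list genes with a nearest region, the 5 genes with the most increased regions within 500 kb outside chromosomes 4, 7, 10 and 16, and Nrip1. Other genes were named after their values were seen. A further sequence is not reported here.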

Additional observations from a re-analysis of the deposited data

How the results depend on the processing

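The lists give no value per library, so depth, replicate spread and the effect of leaving out a replicate could not be examined. No paired analysis was possible because no file gives values per library, and for the same reason leaving out a replicate and a replicate block were not run. The locus had 11 increased regions when only regions at least 1 kb wide were kept, of which 7 were nearest Pla2g4a, and 12 or 3 when neighbours within 10 or 100 kb were joined. A limit of 1 Mb added 5 decreased regions. With all annotated genes competing, Ptgs2 was nearest to 0 regions, and 2 genes of the eicosanoid list had an increased region. By the centre, 0 regions lay inside Ptgs2, and within 0.1 kb of a member's start there were 0. The share of genes with as many increased regions was 0.0177% without chromosomes 4, 7, 10 and 16 and 0.0228% by nearest start. Counting within 100 kb of a start, 13 genes of the list had an increased and 23 a decreased region, and 5 had a decreased region in the gene body. Over whole regions, matches were found in 9 regions for TEAD (28.6% of all increased regions), 7 for the MyoD-type E-box (44.1%), 2 for MEF2 (4.85%), 15 for C/EBP (35.2%), 14 for RUNX (51.7%), 1 for the estrogen-related receptor motif (1.97%), 2 for NF-kB (13.6%), 14 for TATA (52.1%) and 5 for the USF-type E-box (10.7%). Searching whole regions covers more sequence, and the wider limits and joins change the counts by construction. The motif CGTCA, the USF-type E-box and the GC comparison without chromosomes 4, 7, 10 and 16, where the locus differed by -2.33 instead of -2.92 percentage points from all increased regions, were chosen after seeing the data.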
